A study of Mus musculus with 11 samples.

Results

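Microtubule-associated proteins, the kinases that act on tau, and the motors and tubulins they work with are described here in the hippocampus of mice aged 6 months. The members are 34 genes, chosen by symbol from a list made with earlier results of these data known, and all 34 were among the 30681 genes of the deposited count table. All 34 also passed the filter on low counts that left 16587 genes to test. The series compared mice carrying a conditional knockout of Dclk3 (cKO) with wild-type (WT) mice, and each library was made from polyadenylated RNA of 1 hippocampus. There were 6 libraries labelled cKO and 5 labelled WT. Dclk3 encodes a kinase of the doublecortin-like family. The sources used here do not name the recombinase, the cells in which it acts or the deleted stretch of Dclk3. Nothing says that each library came from another animal, so p-values measure the spread between these libraries, which may be technical.

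Microtubules are hollow polymers of alpha- and beta-tubulin that carry long-range transport in axons and dendrites. Tau and the other microtubule-associated proteins (MAPs) bind along the polymer, and kinases such as MARK, GSK3 and CDK5 add phosphates that loosen this binding. Kinesins carry cargo toward the growing end of the microtubule and dynein carries it back, while stathmins bind free tubulin and favour disassembly. In neurons the balance of these proteins sets the polarity and the shape of the cell.

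Libraries held between 24001828 and 35674490 counts. Levels are counts relative to a fixed library total (CPM), scaled by TMM, a factor that evens out differences in RNA makeup. Dclk3 itself, in cKO-labelled replicates 1 to 6, was at 15.45, 21.1, 21.1, 25.7, 18.2 and 19.2 CPM, and in WT replicates 1 to 5 at 19.6, 21.0, 22.3, 28.1 and 21.05 CPM. The groups overlapped and the log2 difference of labelled cKO minus WT was -0.15 ± 0.12 (SE; edgeR, adjusted p = 0.727), so the lower mean of the targeted transcript did not pass the test, and directions are given by label. Transcripts of Xist and of 4 Y-linked genes showed all 6 libraries labelled cKO to be male, with 3 female and 2 male libraries in WT, so that sex and genotype are confounded in part. Each marker of neurons and of the dentate, CA1 and CA3 fields reached 1 CPM in at least 1 library, as did each marker of every other cell type listed. Summed astrocyte markers ran from 2235 to 4867 CPM in the libraries labelled cKO and from 2059 to 2732 CPM in WT, and microglial markers from 317 to 406 CPM and from 306 to 343 CPM. All 4 astrocyte and all 4 microglial markers had higher fold changes by sign. Of them 1 and 3 had an unadjusted p under 0.05, a threshold that 9.19% of all genes tested passed in either direction. Marker lists of the meninges and the thalamus, tissue next to the hippocampus, had larger median differences the other way. The 4 meningeal fibroblast markers had a median log2 fold change of -0.69, with 1 of 4 higher by sign and 3 of 4 at an unadjusted p under 0.05. They summed to 46.8 to 135 CPM in the libraries labelled cKO and 70.8 to 111 CPM in WT. The 4 thalamic markers had a median of -0.39, again with 3 of 4, and summed to 32.2 to 43.4 CPM and 41.45 to 52.6 CPM. Summed neuronal markers ran from 4577 to 5636 CPM and from 4789 to 4998 CPM. In such bulk tissue fewer cells of a type and less RNA per cell cannot be told apart, and the part of cell makeup and of adjoining tissue in the results below was not tested.

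The transcripts of the 34 members spanned a wide range. Levels per kilobase of exon are used to set genes beside each other. The length is that of all annotated exons of a gene merged, which can exceed that of 1 transcript. For Mark3 it is 9700 bases, against 2394 in 1 of its transcripts, and for Stmn3 it is 1136 in both. The order given here depends on this choice of length. The highest level was that of Kif5a, a heavy chain of the conventional kinesin found in neurons, at 574.1 CPM per kb over the 11 libraries. Stmn3, a stathmin of neurons, followed at 403.5 CPM per kb. Tubb4a and Tubb2a, a pair of beta-tubulins, came next at 205.8 and 203.4 CPM per kb, a gap smaller than the SD of either gene in either group. Kif5c and Kif1a stood at 167.9 and 160.0 CPM per kb, also closer than their spread in WT, where the means were 155.3 and 155.0 CPM per kb. At the low end were Stmn1 at 7.73 and Mark3 at 7.26 CPM per kb, which overlapped within their SDs. Mapt, the gene of tau, was in the middle at 57.5 CPM per kb, below Map1a (144 CPM per kb) and Map2 (122 CPM per kb), the large MAPs of mature axons and dendrites.

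**Figure D1:**
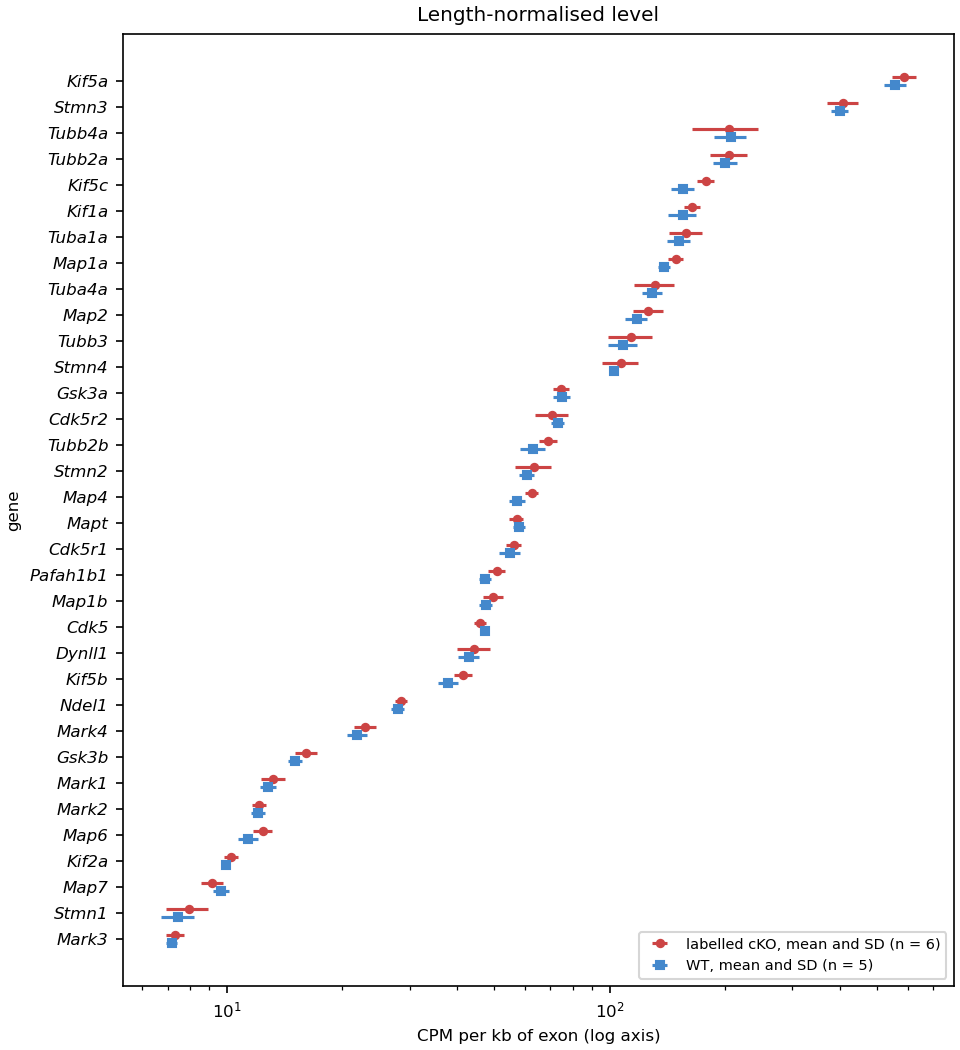
Length-normalised level of each of the 34 genes (CPM per kb of exon, log axis) as mean and SD in 6 libraries labelled cKO and 5 WT libraries. The order runs from Kif5a at 574.1 to Mark3 at 7.26 CPM per kb, and the 2 groups lie close together at every gene.

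The comparison of the labelled genotypes gave small differences in all 34 genes. The log2 fold changes of labelled cKO over WT ran from -0.08 to 0.20, with a median of 0.06, against a median of -0.0001 over all 16587 genes tested. By sign 28 of the 34 members were higher and 6 lower in the libraries labelled cKO, where 50% of all genes tested were higher. By edgeR's quasi-likelihood test 0 of the 34 passed at an adjusted p of 0.05, with a background of 0% of all genes. At an unadjusted p under 0.05 there were 7 members, all with higher values in the libraries labelled cKO (Kif5c, Map4, Kif5b, Tubb2b, Map6, Pafah1b1 and Map1a). The background was 9.19% of genes tested, 3.84% in that direction and 5.35% in the other. Scaling by library totals, without the TMM factor, gave 24 higher and 10 lower members, beside 38.1% of all genes higher, and 2 members at an unadjusted p under 0.05 (Kif5c and Map4). The members also had smaller standard errors than most genes, with a median of 0.05 against 0.08 over all genes tested. DESeq2 called 1 member, Kif5c, with a background of 0.404% of genes called and 0.181% called higher. It was again 1 member, Kif5c, on the table without a count filter (background 0.203%, 0.0999% higher). With a sex term DESeq2 called 0 members (background 0.0241%; 2 higher and 1 lower at an unadjusted p under 0.05), and limma-voom with quality weights called 0 of the 34 (6 at an unadjusted p under 0.05).

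Fewer members had an unadjusted p under 0.05 when sex was taken into account. With sex as a term, 2 members were higher at an unadjusted p under 0.05 (Kif5c and Tubb2b; background 2.59%) and 1 was lower (Map7; background 4.36%). In the 8 male libraries, of which 2 are WT, Kif5c and Tubb2b were higher at that threshold (background 2%) and 0 were lower (background 3.58%). The count of 7 was lower with most single libraries left out. It was 2 without WT replicate 3 and 4 without WT replicate 4. It was 5 without WT replicate 1 or 5, and 5 without replicate 1, 3 or 4 labelled cKO. It was 6 without replicate 5 or 6 labelled cKO, and 7 without replicate 2 of either group. The share of all genes at that threshold is not given for these settings, which also have fewer libraries. These counts therefore cannot be read as particular to the members. Nor is that share given for library totals, limma-voom or DESeq2 with a sex term. The median of 0.06 was 0.04 without either replicate 3 or replicate 4 of the libraries labelled cKO.

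**Figure D2:**
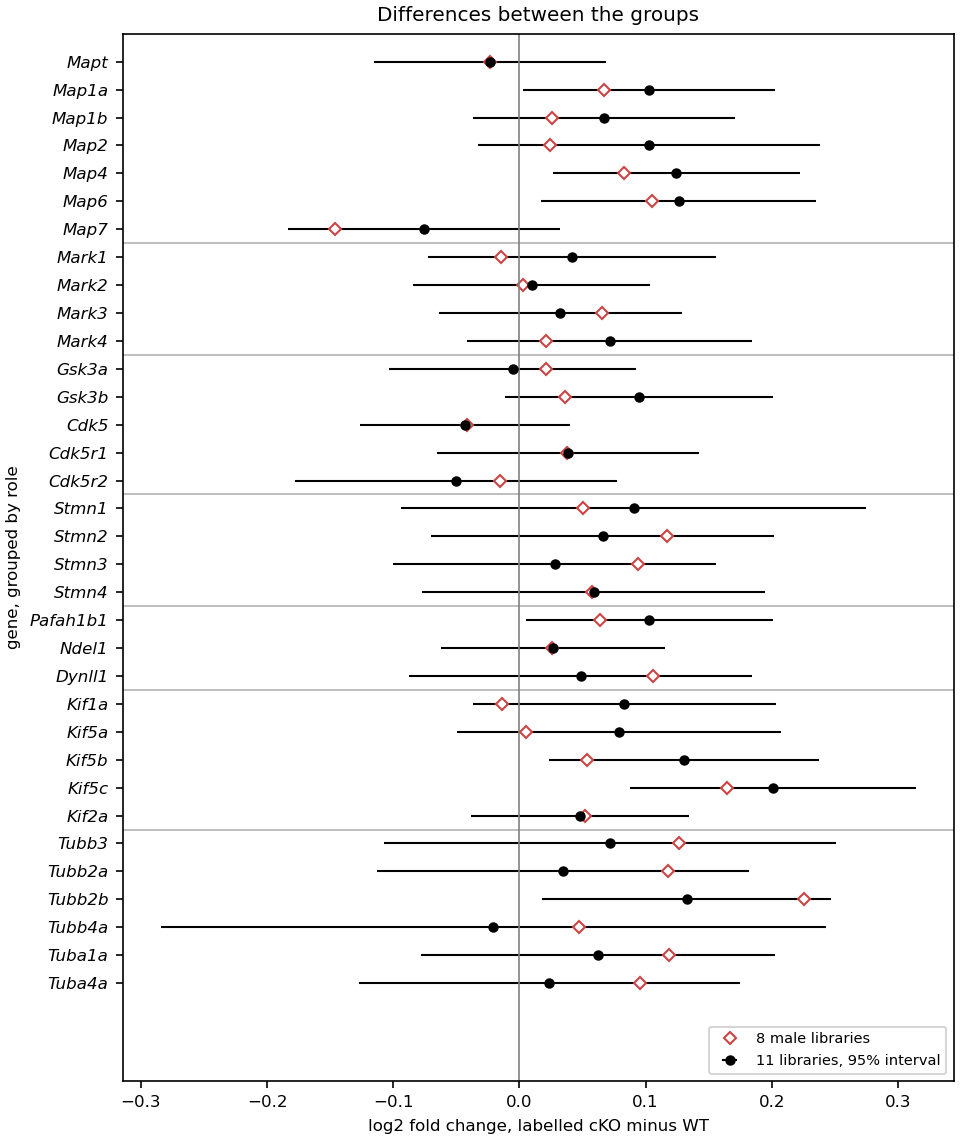
Log2 fold change of labelled cKO minus WT for each gene, with 95% intervals from 11 libraries (black) and the value from the 8 male libraries (open diamonds). The interval of 7 genes lies above 0, Kif5c at 0.20 is farthest to the right, and all 6 tubulins have their diamond to the right of the black point.

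Kinesins had the member with the largest difference. Kif5c, a conventional kinesin heavy chain of neurons (ENSMUSG00000026764, chr2:49619298-49774778, plus strand, mm10), ran from 1222 to 1390 CPM in the libraries labelled cKO, with a median of 1249 CPM. In WT replicates 1 to 5 it had 1178, 1173, 1097, 991.5 and 1105 CPM. All 6 libraries labelled cKO lay above every WT library, a separation shown by 0.404% of all genes tested (0.512% the other way, with 0 members), and replicate 2 was the highest library while WT replicate 4 was the lowest. The means of 1275 ± 64.2 and 1109 ± 75.5 CPM (SD, n = 6 and 5) differed by 0.20 ± 0.05 (log2 ± SE; 95% interval 0.09 to 0.31; edgeR, unadjusted p = 0.00162, adjusted p = 0.349). DESeq2 gave 0.21 with an adjusted p of 0.0393, and on the table without a count filter 0.21 with an adjusted p of 0.0344. In simulated data DESeq2 called 32 of 16248 unchanged genes and edgeR 7. With sex as a term DESeq2 no longer called Kif5c (log2 fold change 0.16 ± 0.07, SE, adjusted p = 0.672), where without that term the value was 0.21 ± 0.05. The standard error was thus larger with the sex term, and DESeq2's calls over all genes went from 67 to 4. The edgeR value in the 8 male libraries was 0.16 ± 0.07 (log2 ± SE, adjusted p = 0.854). That all 6 libraries labelled cKO lay above the 2 male WT libraries follows from the separation given above and is no further check. Of all genes tested 3.41% showed it.

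The sequence ahead of the Kif5c start is shown because Kif5c was the member with the largest difference and the one that DESeq2 called. The run holds the 250 bases before the start at chr2:49619036-49619285, plus strand, from RefSeq on GRCm38.p6. Capitals mark matches, on either strand, to TATAAA, the letters of the TATA box, and to TGACGTCA, those of the cAMP response element. The match to TATAAA reads TTTATA, so it is on the minus strand, and it lies near the end of the run far from the start.
Kif5c: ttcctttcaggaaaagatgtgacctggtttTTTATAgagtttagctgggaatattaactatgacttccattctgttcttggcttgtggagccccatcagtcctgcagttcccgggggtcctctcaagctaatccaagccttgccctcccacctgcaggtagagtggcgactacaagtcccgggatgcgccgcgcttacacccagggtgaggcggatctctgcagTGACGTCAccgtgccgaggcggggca
The GC box GGGCGG was not found in these 250 bases on either strand. RefSeq promoters matched 23 of the 34 members, taking the first start listed for a gene. TGACGTCA was found ahead of 2 of them, Kif5c and Tubb2a, and ahead of 1.62% of 27025 genes. TATAAA was found ahead of 5 of the 23 and of 13% of all, and GGGCGG ahead of 17 of the 23 and of 32.9% of all. The median GC content was 66.4% for the 23 members and 52% for all, with Kif5c at 55.2%. The 27025 genes include many outside the 16587 tested, while all members were tested. A comparison with the tested genes alone was not made, so these shares cannot be read as particular to the members. The matches describe letters in the sequence and show no binding.

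The other conventional kinesin heavy chains had smaller differences. Kif5b, the form found in most tissues, ran from 307 to 353 CPM in the libraries labelled cKO (median 330.5 CPM) and had 303, 323, 294, 276 and 316 CPM in WT replicates 1 to 5. The groups overlapped, with WT replicates 2 and 5 inside the range of the other group, at a log2 fold change of 0.13 ± 0.05 (SE; edgeR, adjusted p = 0.476) that was 0.05 in the 8 male libraries. Kif5a, at 4113 ± 301.1 and 3893 ± 254 CPM (SD, n = 6 and 5), differed by 0.08 ± 0.06 (log2 ± SE), and by 0.0049 in the 8 male libraries. The level of Kif5c relative to Kif5b within a library, a ratio that no scaling factor can move, differed by 0.07 on the log2 scale (2-sided exact permutation p = 0.188, adjusted over 9 ratios p = 0.347). That of Kif5a relative to Kif5b differed by -0.05 (exact permutation p = 0.0693, adjusted p = 0.347). Coding sequences of the 3 genes are 61.7% to 69.1% identical, and no stretch of 50 bases of Kif5a or Kif5c was found in transcripts of another gene.

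Kif1a, which carries precursors of synaptic vesicles, and Kif2a, a kinesin that removes tubulin from microtubule ends, overlapped between the groups. Kif1a ran from 1434 to 1646 CPM in the libraries labelled cKO and from 1310 to 1615 CPM in WT, a difference of 0.08 ± 0.06 (log2 ± SE), and its sign turned to -0.01 in the 8 male libraries. Kif2a, from 63.2 to 69.5 CPM and from 62.5 to 64.8 CPM, differed by 0.05 ± 0.04 (log2 ± SE). The 5 kinesins all had higher means in the libraries labelled cKO, with TMM, DESeq2's size factors or library totals as the scaling, and 1 of the 5 separated the groups.

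**Figure D3:**
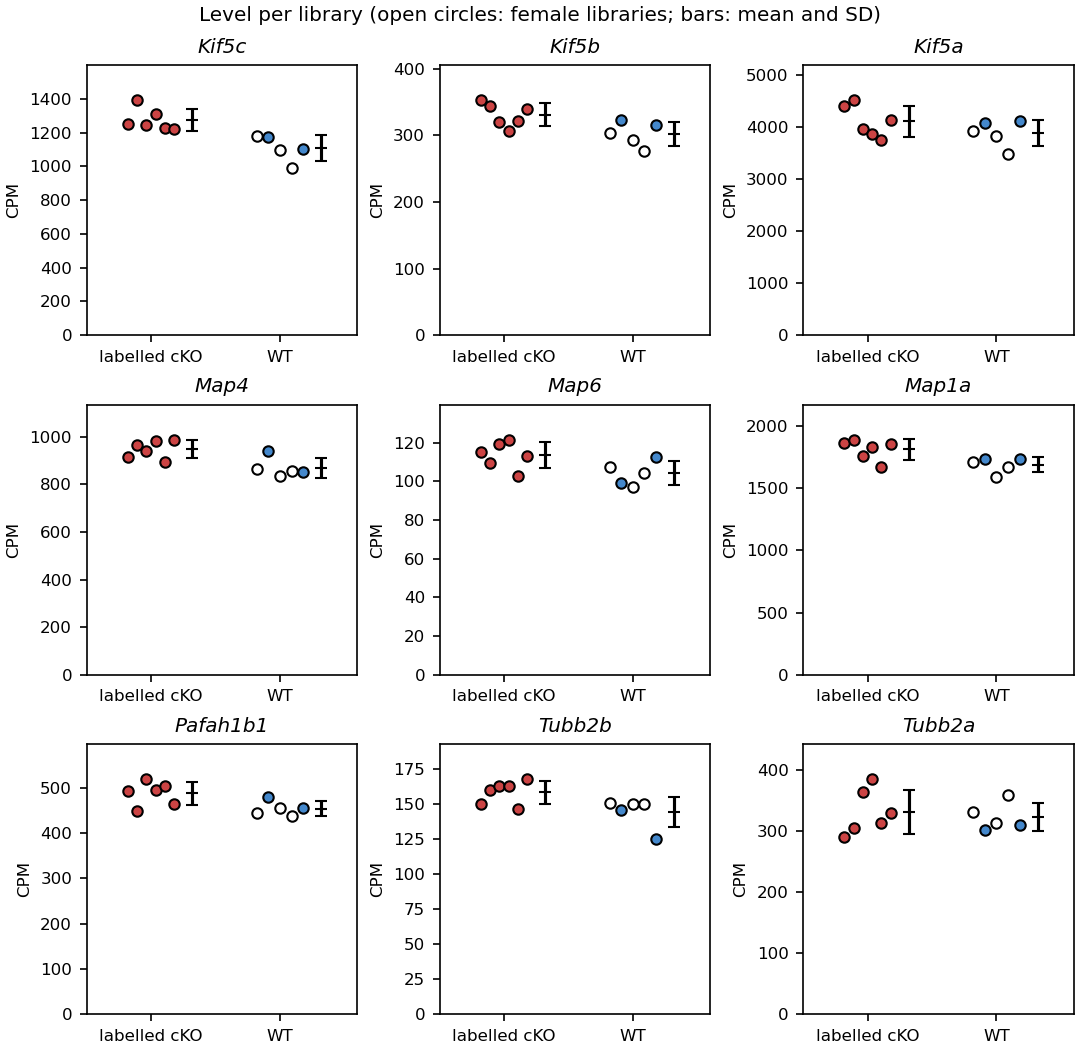
CPM in each library for 9 genes, with libraries labelled cKO in red, male WT libraries in blue and female WT libraries as open circles, and bars for the mean and SD. Only the Kif5c panel shows all 6 libraries labelled cKO (1222 to 1390 CPM) above all 5 WT libraries (991.5 to 1178 CPM).

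Among the MAPs that bind along the microtubule, 5 of 7 had higher and 2 lower values, and 3 of 7 had an unadjusted p under 0.05. Map4, a MAP of most cell types (ENSMUSG00000032479, chr9:109931460-110083955, plus strand), ran from 893 to 987 CPM in the libraries labelled cKO (median 953 CPM). Its values in WT replicates 1 to 5 were 864, 941, 835, 855 and 851 CPM. WT replicate 2 stood above the other 4 WT libraries and inside the range of the libraries labelled cKO, so the groups overlapped. Map4 differed by 0.12 ± 0.05 (log2 ± SE; edgeR, adjusted p = 0.446), and by 0.08 in the 8 male libraries.

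Map6, the stable tubule only protein that shields microtubules from cold, ran from 103 to 121 CPM in the libraries labelled cKO (median 114 CPM). Its WT replicates 1 to 5 had 107, 99.1, 97.1, 104 and 112 CPM. Here 5 of the 6 libraries labelled cKO lay above the WT median and the ranges overlapped (log2 fold change 0.13 ± 0.05, SE). Map1a, a MAP of mature axons and dendrites, ran from 1674 to 1889 CPM (median 1846 CPM), and its WT replicates 1 to 5 had 1713, 1732, 1590, 1672 and 1733 CPM. Replicate 5 of the libraries labelled cKO lay among the WT values, and the difference was 0.10 ± 0.05 (log2 ± SE; edgeR, adjusted p = 0.529).

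The remaining MAPs overlapped between the groups. By edgeR with genotype alone and all 11 libraries, none of these 4 genes had an unadjusted p under 0.05. Map2, the MAP of dendrites, at 2077 ± 186 and 1934 ± 126 CPM (SD, n = 6 and 5), differed by 0.10 ± 0.06 (log2 ± SE), which was 0.02 in the 8 male libraries. Map1b, prominent in growing axons, was at 0.07 ± 0.05 (log2 ± SE). Mapt ran from 410.4 to 459.9 CPM in the libraries labelled cKO and from 418 to 455 CPM in WT, a difference of -0.02 ± 0.04 (log2 ± SE; 95% interval -0.12 to 0.07; edgeR, adjusted p = 0.909). The transcript of tau was thus among the members with the least spread, with a coefficient of variation of 3.80% over 11 libraries. Map7, which recruits kinesin to microtubules, was the lowest member at -0.08 ± 0.05 (log2 ± SE). With a sex term Map7 was at -0.15 (edgeR, unadjusted p = 0.0377, adjusted p = 0.701). In the 8 male libraries Map7 was at -0.15, with both male WT libraries (79.55 and 81.7 CPM) above all 6 libraries labelled cKO (66.8 to 78.8 CPM), as were 3.82% of all genes tested. Within a library, Map2 relative to Mapt differed by 0.12 on the log2 scale (exact permutation p = 0.193, adjusted p = 0.347) and Map1a relative to Map1b by 0.04 (exact permutation p = 0.496, adjusted p = 0.558).

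The kinases that phosphorylate tau and other MAPs, with the CDK5 activators, overlapped between the groups. By edgeR with genotype alone and all 11 libraries, 0 of these 9 genes had an unadjusted p under 0.05. The MARK kinases, which detach MAPs by phosphorylating their microtubule-binding repeats, had log2 fold changes of 0.04 ± 0.05 for Mark1, 0.0097 ± 0.04 for Mark2, 0.03 ± 0.05 for Mark3 and 0.07 ± 0.05 for Mark4 (SE). All 4 values were above 0, but Mark2 was at -0.02 with scaling by library totals and Mark1 at -0.01 in the 8 male libraries. Gsk3b, a kinase of tau and of beta-catenin, ran from 146.5 to 175 CPM in the libraries labelled cKO (median 160.2 CPM) and had 146, 156.5, 144, 142 and 153 CPM in WT replicates 1 to 5. All 6 libraries labelled cKO were above the WT median although the ranges overlapped, with a difference of 0.09 ± 0.05 (log2 ± SE; edgeR, unadjusted p = 0.0765, adjusted p = 0.582). Gsk3b was at 0.03 with a sex term and 0.04 in the 8 male libraries. By limma-voom with quality weights Gsk3b was at 0.10 (unadjusted p = 0.0442, adjusted p = 0.479). Its paralog Gsk3a was at -0.0054 ± 0.05 (log2 ± SE). The level of Gsk3a relative to Gsk3b within a library differed by -0.10 on the log2 scale (exact permutation p = 0.139, adjusted p = 0.347) and by -0.01 in the 8 male libraries.

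CDK5 is a kinase of neurons that needs the activators p35 and p39, encoded by Cdk5r1 and Cdk5r2. Cdk5 ran from 95.4 to 104 CPM in the libraries labelled cKO and from 99.6 to 104.5 CPM in WT, with the smallest coefficient of variation of the 34 members (3.16%) and a difference of -0.04 ± 0.04 (log2 ± SE). Cdk5r1 was at 0.04 ± 0.05 and Cdk5r2 at -0.05 ± 0.06 (log2 ± SE), with opposite signs. Their ratio within a library differed by 0.10 on the log2 scale (exact permutation p = 0.242, adjusted p = 0.364). The 95% intervals of these 3 genes together reach from -0.18 to 0.14.

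The members with the widest spread over the libraries were a stathmin and a pair of tubulins. The coefficient of variation over 11 libraries was 15.2% for Tubb4a, 11.5% for Stmn1 and 11.3% for Tubb3, against 3.16% to 9.40% for the other 31 members. Replicate 4 of the libraries labelled cKO was the highest library in 11 of the 34 members, among them Stmn2 and all tubulins except Tubb2b, beside 9.97% of all genes tested. The median centred level of the 6 tubulins (log2 CPM minus the mean of each gene over the libraries) was 0.25 in that library and 0.14 in replicate 3, against -0.12 and -0.10 in replicates 1 and 2. Kinesins showed another order, with 0.14 and 0.12 in replicates 1 and 2 and -0.03 in replicate 4. The groups of libraries overlapped in both cases.

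**Figure D4:**
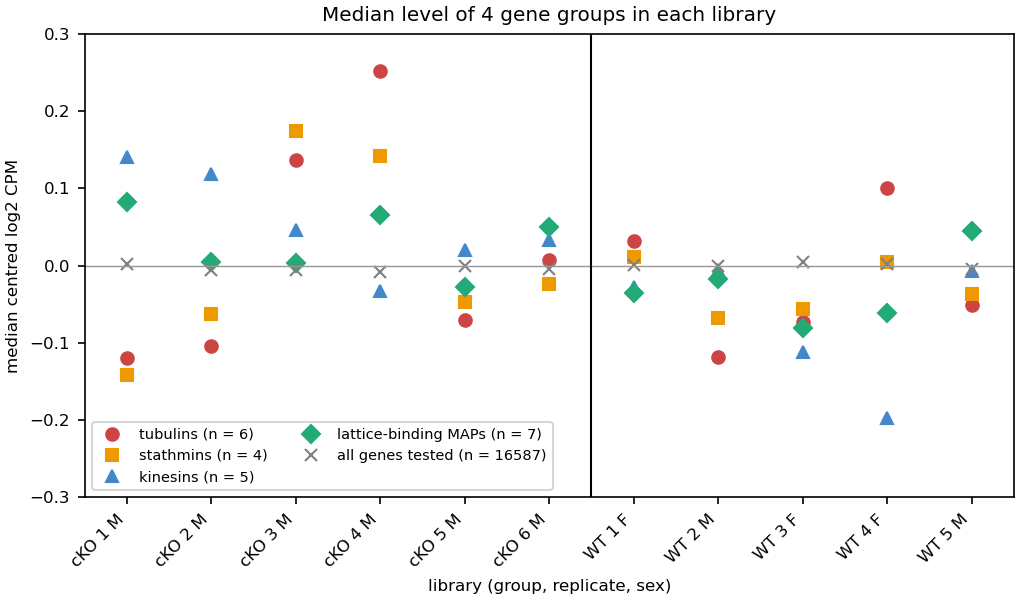
Median centred log2 CPM of the tubulins, stathmins, kinesins and lattice-binding MAPs, and of all genes tested, in each library (F and M give the sex read from Xist and Y-linked genes). Tubulins and stathmins stand highest in cKO replicates 3 and 4, while kinesins stand highest in cKO replicates 1 and 2 and lowest in WT replicate 4.

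The balance of long and short transcripts also differed among the libraries. In replicate 1 labelled cKO the 20 members with at least 4000 bases of exon stood 0.18 above the 14 shorter ones in median centred log2 CPM, and among all protein-coding genes tested that difference was 0.09, the highest of the 11 libraries. WT replicate 5 had 0.05 over all protein-coding genes and replicate 6 labelled cKO -0.05. The 20 longer members had a median log2 fold change of 0.08 between the groups and the 14 shorter ones 0.03, and in the 8 male libraries 0.04 and 0.08, the reverse order. Over all protein-coding genes tested the medians were 0.0033 for the longer and -0.0012 for the shorter genes, and -0.0045 and 0.03 in the 8 male libraries. The part of transcript length in the members' differences was not tested.

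**Figure D5:**
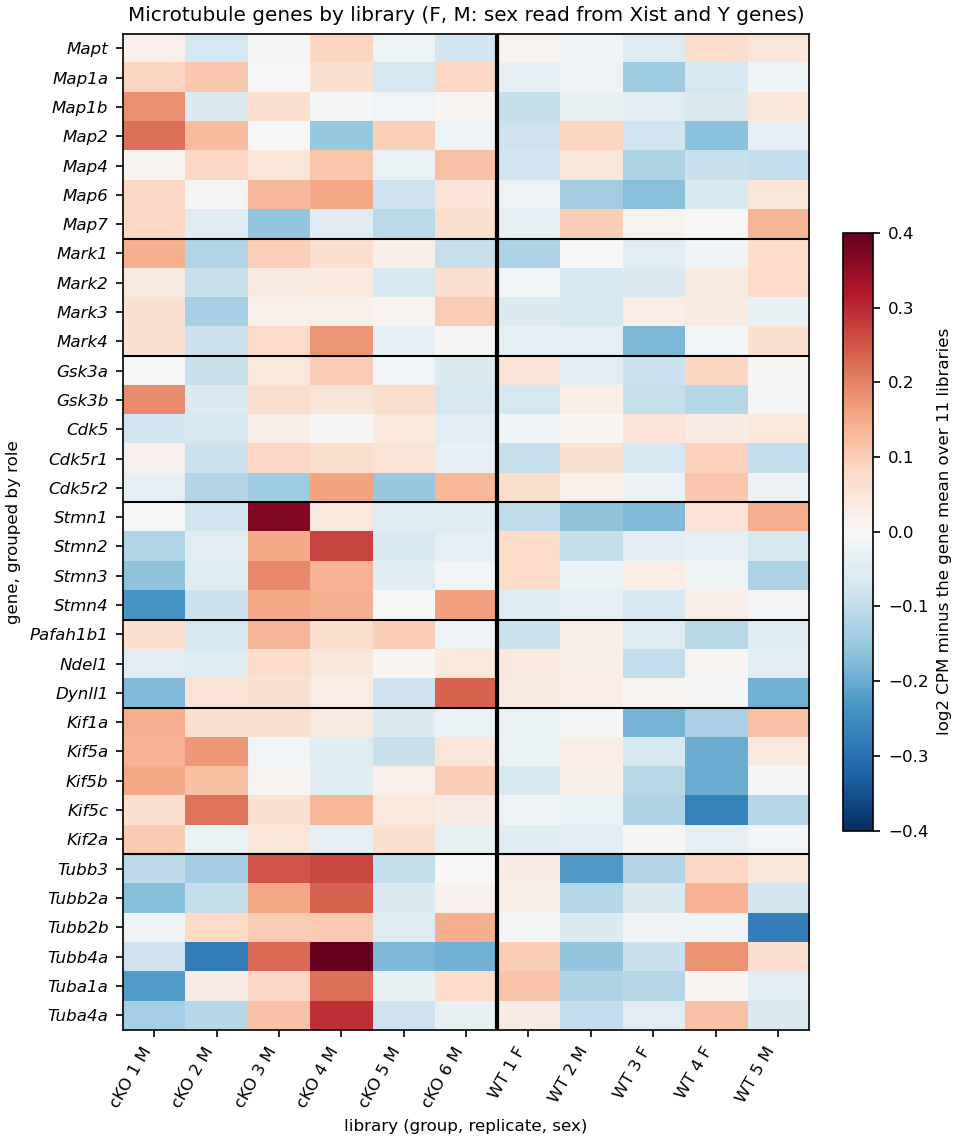
Centred log2 CPM (colour) of the 34 genes in rows, grouped by role, in 11 libraries in columns, with cKO left of the vertical line and WT right of it. Tubulin and stathmin rows are mostly red in cKO replicates 3 and 4, and the Kif5a, Kif5b and Kif5c rows are blue in WT replicate 4.

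The 4 stathmins all had higher means in the libraries labelled cKO, except that Stmn3 was at -0.0008 with scaling by library totals. The log2 fold changes were 0.09 ± 0.09 for Stmn1, 0.07 ± 0.06 for Stmn2, 0.03 ± 0.06 for Stmn3 and 0.06 ± 0.06 for Stmn4 (SE), and the 95% interval of each gene held 0. Single libraries carried much of these values, since Stmn1 was at 0.02 without replicate 3 labelled cKO and Stmn2 at 0.01 without replicate 4 labelled cKO. Stmn2, a stathmin of growing and regenerating axons, ran from 320 to 420 CPM in the libraries labelled cKO and from 325 to 366 CPM in WT. Stmn1, the founding member of the family, had the lowest counts of all 34 genes, 15.3 ± 1.93 and 14.4 ± 1.44 CPM (SD, n = 6 and 5). Of the stretches of 50 bases in the Stmn1 transcript 36.5% also occur in transcripts of other genes, most of them in Gm11223, which had 0.225 to 0.396 CPM, so that the count of Stmn1 depends on how reads with several matches were treated. Stmn1 relative to Stmn2 within a library differed by 0.03 on the log2 scale (exact permutation p = 0.79, adjusted p = 0.79).

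Tubulins hold 1 of the 7 members with an unadjusted p under 0.05. Tubb2b, a beta-tubulin prominent in the developing brain (ENSMUSG00000045136, chr13:34126748-34130466, minus strand), ran from 146.4 to 168 CPM in the libraries labelled cKO (median 161.5 CPM). In WT replicates 1 to 5 it had 151, 146.1, 150.1, 150.2 and 125 CPM. WT replicate 5 stood apart below the other 10 libraries, and the remaining WT values lay at the lower edge of the libraries labelled cKO. Tubb2b differed by 0.13 ± 0.05 (log2 ± SE; edgeR, adjusted p = 0.484), by 0.23 in the 8 male libraries (edgeR, unadjusted p = 0.0104, adjusted p = 0.854), where replicate 5 is 1 of the 2 WT libraries, and by 0.08 with that replicate left out of the 11 (edgeR, adjusted p = 0.79).

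Tubb2a is the neighbouring gene on chromosome 13. Its values ran from 290 to 384 CPM in the libraries labelled cKO and from 301 to 359 CPM in WT, a log2 fold change of 0.03 ± 0.07 (SE) that was 0.12 in the 8 male libraries. A difference between Tubb2a and Tubb2b was not tested. The coding sequences of Tubb2a and Tubb2b are 96.5% identical, and 49.6% of the stretches of 50 bases in Tubb2a and 39.3% of those in Tubb2b occur in transcripts of other genes, mostly each other's. Both counts are therefore uncertain. The last 60 coding bases are shown because the end of the coding sequence is where tubulin isotypes in general differ most. Capitals mark the 3 bases that differ between these 2 genes, and none of the 3 changes the encoded amino acid. Both stretches are from GENCODE M21 transcripts (mm10, minus strand, Tubb2a at chr13:34074468-34074527 and Tubb2b at chr13:34127471-34127530).
Tubb2a: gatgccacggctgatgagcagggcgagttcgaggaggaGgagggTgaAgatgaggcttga
Tubb2b: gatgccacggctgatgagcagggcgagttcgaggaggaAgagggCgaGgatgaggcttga
The coding sequences of Tubb2a and Tubb3 were 83.4% identical and those of Tubb2a and Tubb4a 84%.

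Tubb3, the beta-tubulin used as a marker of neurons, ran from 188 to 249 CPM in the libraries labelled cKO and from 177 to 219 CPM in WT (log2 fold change 0.07 ± 0.08, SE). Tubb4a, a beta-tubulin of neurons and of myelinating oligodendrocytes, ran from 374 to 600.1 CPM and from 408 to 515 CPM, with a log2 fold change of -0.02 ± 0.12 (SE), the widest error of the 34. The summed oligodendrocyte markers overlapped as well, from 4287 to 5857 CPM in the libraries labelled cKO and from 4518 to 5519 CPM in WT. Tubb4a relative to Tubb3 within a library differed by -0.10 on the log2 scale (exact permutation p = 0.0974, adjusted p = 0.347).

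The alpha-tubulins Tuba1a, which is needed for neuronal migration, and Tuba4a, which is prominent in mature brain, overlapped between the groups. Tuba1a ran from 239 to 325.5 CPM in the libraries labelled cKO and from 256.5 to 302 CPM in WT, a difference of 0.06 ± 0.07 (log2 ± SE). Tuba4a differed by 0.02 ± 0.07 (log2 ± SE), and by -0.0055 with scaling by library totals. Of the 50-base stretches of Tuba1a 72.9% occur in transcripts of other genes, most of them in Tuba1c (0.269 to 1.18 CPM), and 26.2% of its exon bases overlap Gm49450 on the same strand, so its count is uncertain. Tuba4a shares 37.3% of its exon bases with Stk16 on the opposite strand, Gsk3a 28.3% with 9130221H12Rik and Kif2a 19.2% with Dimt1, and whether counting used the strand is not given in the sources used here. Tuba4a relative to Tuba1a differed by -0.04 within a library (exact permutation p = 0.45, adjusted p = 0.558).

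The members tied to dynein, the motor toward the cell body, had 1 gene with an unadjusted p under 0.05. Pafah1b1, which encodes LIS1, a regulator that holds dynein in its active form (ENSMUSG00000020745, chr11:74673949-74724670, minus strand), ran from 449 to 518 CPM in the libraries labelled cKO (median 494 CPM). Its WT replicates 1 to 5 had 444, 479, 455, 437 and 455.5 CPM. Replicates 2 and 6 labelled cKO lay within the WT range and the other 4 above it, a log2 fold change of 0.10 ± 0.05 (SE; edgeR, adjusted p = 0.516) that was 0.06 in the 8 male libraries. Ndel1, the partner of LIS1, was at 0.03 ± 0.04, and -0.0013 with scaling by library totals, and Dynll1, a dynein light chain, at 0.05 ± 0.06 (log2 ± SE). The Dynll1 log2 fold change was 0.0074 without WT replicate 5, 0.0030 without replicate 6 labelled cKO and 0.11 in the 8 male libraries.

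Other genes of the same machinery were read from a list of 99 further tubulins, MAPs, enzymes, kinases and motors, all of which were tested. By edgeR 0 of the 99 passed over all genes. By sign 65 were higher and 34 lower, with a median log2 fold change of 0.03, and 5 with higher and 2 with lower values had an unadjusted p under 0.05, beside the backgrounds of 3.84% and 5.35%. With a sex term these counts were 1 higher and 3 lower (backgrounds 2.59% and 4.36%), and in the 8 male libraries also 1 and 3 (backgrounds 2% and 3.58%). DESeq2 also called 0 of the 99. The higher ones were Mapre1, which encodes the end-binding protein EB1 (0.15 ± 0.05), Kif17, a dendritic kinesin (0.28 ± 0.11), Ppp2r2b, a regulatory subunit of the tau phosphatase PP2A (0.13 ± 0.05), Agtpbp1, which trims glutamates from tubulin (0.08 ± 0.04), and Kif1b, which carries mitochondria and vesicles (0.10 ± 0.05; log2 ± SE). The lower ones were Tbce, a chaperone of tubulin folding (-0.23 ± 0.08), and Hdac6, the tubulin deacetylase (-0.12 ± 0.06; log2 ± SE). Ppp2r2b, with 107 ± 6.69 and 97.9 ± 2.13 CPM (SD, n = 6 and 5), was the gene of the 99 in which all 6 libraries labelled cKO lay above every WT library.

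The other genes of smallest p in each group of that list had an unadjusted p above 0.05, whatever the size of their difference. Tbca, a tubulin cofactor, was at 0.10 ± 0.08 and Map1s, a small MAP, at -0.03 ± 0.05 (log2 ± SE). Csnk1e, a casein kinase that phosphorylates tau, was at -0.08 ± 0.05 and Kif21b, a kinesin of dendrites, at -0.10 ± 0.08 (log2 ± SE). Nde1, a paralog of Ndel1, was at 0.11 ± 0.07 and Hook1, a dynein adaptor, at -0.18 ± 0.14 (log2 ± SE). In the 19 genes of dynein, dynactin and their adaptors 0 had an unadjusted p under 0.05.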

How the data were processed

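Polyadenylated RNA of 1 hippocampus per library was sequenced after a strand-marking preparation, per the labels' protocols. The tool bcl2fastq 2.17.1.14 and the build mm10 appear in the submitters' processing notes. Aligner, counter, annotation and strand setting were not given in the sources used here. Raw counts by Ensembl gene, in whole numbers, were taken from the authors' deposited table. Of 30681 genes 30566 matched a symbol. The members and gene lists were chosen with earlier results of these data known.

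Genes were filtered with filterByExpr, scaled by TMM and tested by edgeR's 2-sided quasi-likelihood F test (robust), with Benjamini-Hochberg adjustment over 16587 genes and a threshold of 0.05. Each edgeR standard error is the fold change over the root of its F statistic, and those of DESeq2 are its own. An unadjusted p given without a tool or setting is from this edgeR test. Exon lengths, merged over all annotated exons of a gene, and coordinates are from GENCODE M21 (mm10). Ratios of length-normalised levels were compared by exact permutation over 462 splits. Centred levels use log2(CPM + 0.5). Shared stretches were searched for 1 transcript per member. No 2 libraries of a group agreed within sampling noise (smallest chi-square per degree of freedom 5.31).

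All members and Dclk3 are named, and of the 99 other genes the 1 of smallest p per direction in each of their 6 groups (Kif1b was added after its values were seen). The fits were first tested on simulated data of 6 against 5 libraries. Of 50 genes changed by 1.25-fold DESeq2 recovered 54%, edgeR 48% and limma-voom 48%. They called 32, 7 and 6 of 16248 unchanged genes. R 4.3.3, edgeR 4.0.16, limma 3.58.1 and DESeq2 1.42.0 were used. Alternatives were other scalings, filters and tools, a replicate block, sex and each library left out. DESeq2 with a sex term or without a filter and the split by length were added after the data were seen.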

Additional observations from a re-analysis of the deposited data

Results flagged for a closer look

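Among 88 sets of values checked (35 genes and 9 ratios in both groups), 4 held 1 library far from the rest by Dixon's criterion, where chance gives about 1 in 20. Map4 was at 940.8 CPM in WT replicate 2, while the remaining 4 of that group had 835 to 864 CPM. Stmn1 was at 19.1 CPM in replicate 3 labelled cKO, against 13.98 to 15.2 CPM in the other 5. WT replicate 5 was low in both Dynll1, at 148.1 CPM, and Tubb2b, at 125.4 CPM, while the remaining 4 of that group had 169 to 173 CPM and 146.1 to 151 CPM.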

How the results depend on the processing

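Over the whole table edgeR called 0 genes, 1 with library totals as the scaling, 3 without a count filter and 0 to 14 with 1 library left out (14 without WT replicate 5). DESeq2 called 67, 61 without a filter and 4 with a sex term. Of the members 1, Kif5c, was called by DESeq2 and by DESeq2 without a filter, and 0 in every other setting run. The members' median stayed above 0, from 0.04 to 0.07 with 1 library left out, and was 0.03 with library totals, where 24 of 34 were higher. The replicate numbers did not pair the libraries, with correlations from -0.32 to 0.21 and 1 of 5 pairs closest by number. With the replicate block the median was 0.06 and 0 members were called.

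Signs turned for 9 of 34 members in 1 or more settings, and the cause was not tested. With a sex term, in the 8 male libraries and by DESeq2 with a sex term the values were -0.0168, -0.0145 and -0.0157 for Mark1, 0.0190, 0.0214 and 0.0202 for Gsk3a, -0.0161, -0.0137 and -0.0151 for Kif1a, and 0.0445, 0.0469 and 0.0457 for Tubb4a. Library totals gave -0.0190 for Mark2, -0.0008 for Stmn3, -0.0013 for Ndel1 and -0.0055 for Tuba4a. The replicate block gave -0.0025 for Mark2 and 0.0059 for Gsk3a, which was at 0.0034 without a filter and 0.0020 by limma-voom. With 1 library left out the ranges were -0.0068 to 0.0300 for Mark2, -0.0308 to 0.0135 for Gsk3a, -0.0103 to 0.0643 for Stmn3, -0.0108 to 0.0738 for Tubb2a, -0.1141 to 0.0324 for Tubb4a and -0.0369 to 0.0556 for Tuba4a. The ratio of Stmn1 to Stmn2 was -0.0604 in the 8 male libraries and -0.0154 to 0.0823 with 1 library left out. The members' median standard error of 0.05 limits what 6 against 5 libraries can show.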
